A study of Mus musculus with 30 samples.

Results

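The heat shock genes examined here were 10 genes taken by symbol from a fixed list: the inducible members Hspa1a, Hspa1b, Hspb1, Hsp90aa1, Hsph1, Dnajb1 and Bag3, and the constitutive members Hspa8, Hspd1 and Hspe1. They were 10 of 32316 gene symbols in the files, and all 10 were among the 17542 genes that passed the filter on low counts. The data were bulk RNA-seq libraries of mesenchymal stromal cells sorted from the lamina propria of the small intestine and colon of untreated C57BL6/Nrj mice, 8 to 10 weeks old. There were 10 sorted populations with 3 libraries each, 30 libraries in all, and the labels speak of 3 individual mice without saying that a replicate number marks one mouse. Dead cells and cells positive for Lineage markers, CD31, BP3 or EpCAM or high for NCAM were gated out before each population was collected. From the small intestine came pericytes (PDGFRa- ESAM-1+ PDPN-), smooth muscle cells or SMC (PDGFRa- ESAM-1+ PDPN+), a CD34+ fibroblast (FB) gate that holds Igfbp5+ and CD81+ FB (ESAM-1- PDGFRaint CD34+), Fgfr2+ FB (ESAM-1- PDGFRaint CD34-) and PDGFRahi FB (ESAM-1- PDGFRahi CD34-). From the colon came pericytes (same gate), CD81+ FB (ESAM-1- PDPNint CD34+ CD90-), CD90+ FB (ESAM-1- CD34+ PDPNhi CD90+), Fgfr2+ FB (ESAM-1- PDPNhi CD34+ CD90-) and PDGFRahi FB (ESAM-1- PDPN+ CD34-). No control kept at low temperature or exposed to heat was analysed here.

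Heat shock proteins are chaperones, which bind unfolded or partly folded proteins and help them fold or be degraded. The inducible genes are switched on by heat shock factor HSF1 when unfolded proteins accumulate, while constitutive members such as Hspa8 serve routine folding in unstressed cells. Enzymatic dissociation of a tissue at body temperature is known to raise inducible heat shock genes and immediate early genes in stromal cells. In this study both tissues went through warm incubation and enzyme digestion before sorting, and the colon differed from the small intestine in a reducing agent in the first incubation and in stirring in place of shaking. Tissue and handling therefore cannot be told apart in any comparison between small intestine and colon. The gates of the FB also differed between the tissues, so tissue and gate cannot be told apart in comparisons of FB.

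The authors' estimated counts summed to between 2245052 (small intestinal Fgfr2+ FB, replicate 3) and 19096945 per library, with a median of 9601683. Small intestinal SMC replicate 3 stood apart, with 17.6% of its gene counts from mitochondrial genes against 1.39% to 5.95% in the other libraries. Levels are given as CPM, counts relative to the size of the library scaled by the trimmed mean of M values (TMM), as mean ± SD with n = 3 unless stated. The spread between libraries of a population was wide, with a common biological coefficient of variation of 0.819, so a gene that missed the threshold is not shown to be equal between populations. In these bulk samples, fewer cells of a type and less RNA per cell cannot be told apart.

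On the GRCm38 build with GENCODE M21 annotation, the inducible HSP70 genes Hspa1a (chr17:34969190-34972156, minus strand) and Hspa1b (chr17:34956436-34959238, minus strand) lie near each other on one strand. Hspb1 was annotated at chr5:135887919-135889563, plus strand, Hsph1 at chr5:149614287-149636376, minus strand and Hsp90aa1 at chr12:110690605-110702728, minus strand. Dnajb1 was at chr8:83608193-83612653, plus strand, Bag3 at chr7:128523616-128546981, plus strand and Hspa8 at chr9:40800984-40810087, plus strand. Hspd1 (chr1:55077835-55088243, minus strand) and Hspe1 (chr1:55088132-55091307, plus strand) overlapped head to head by 112 bases on opposite strands, and Hspa1a overlapped the antisense gene model Gm20481 over 2225 bases. Whether the counting used strand was not given in the sources used here, so reads from such pairs could not be told apart. Of the distinct 31-base words in their transcripts, Hspa1a shared 70.1% and Hspa1b 68.1% with other genes, mainly with each other, so the split of reads between these near-identical copies is uncertain and their sum is also given. Hspb1 (55.4%, mainly the pseudogene Hsp25-ps1), Hsp90aa1 (51.5%, mainly Gm12346) and Hspd1 (50.7%, mainly Hspd1-ps3) also shared more than 50%. The assignment of their reads is thus uncertain too, but the share of words is not the share of counts in doubt. The authors' estimation gave these 3 pseudogenes 8.81, 439 and 45.3 counts over all 30 libraries.

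Of the 10 members, 4 differed between the populations at an adjusted p below 0.05, Hspa1a, Hspa1b, Hspb1 and Hspa8, where 26.4% of all genes tested did (edgeR quasi-likelihood F test, Benjamini-Hochberg over all genes). Hspb1 (adjusted p = 0.000191) and Hspa8 (adjusted p = 0.000520) kept this call when any one of the 30 libraries was left out. Hspa1a had an adjusted p of 0.0282, which rose to at most 0.0694 when small intestinal pericyte replicate 1 or 2 was left out. Hspa1b was at 0.0464 and lost its call in 22 of the 30 such fits, with values up to 0.11, so that it lies at the threshold. Without small intestinal pericyte replicate 2 the count was 2, and with no filter on low counts it was 5, Dnajb1 being added. As a sum, Hspa1a plus Hspa1b had an adjusted p of 0.0241 in the same test. For the other members the adjusted p ran from 0.180 (Dnajb1) to 0.935 (Hspd1).

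**Figure D1:**
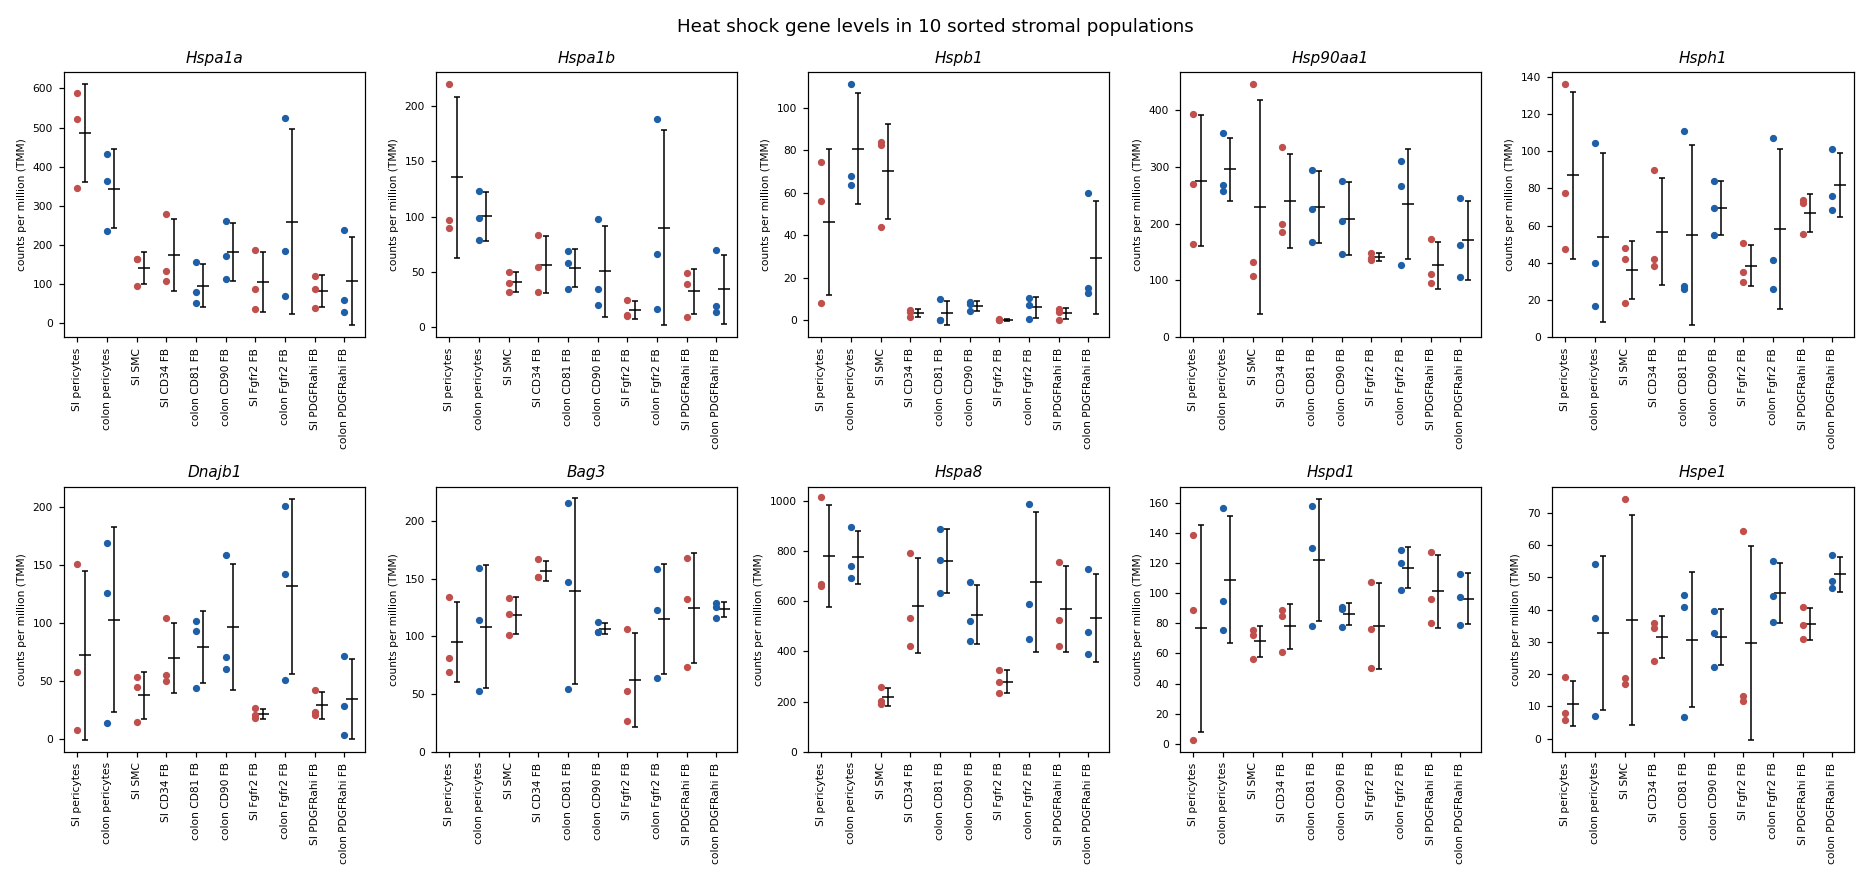
Level of each heat shock gene in TMM-scaled CPM (vertical axis, linear, starting at 0 or just below) in the 10 sorted populations (horizontal axis); each point is 1 library, red for small intestine (SI) and blue for colon, and the black mark with bars is the mean ± SD of 3 libraries. Hspb1 reached 44.2 or more in every SMC and colonic pericyte library and at most 60.1 in the FB libraries, and Hspa8 was lowest in SMC and small intestinal Fgfr2+ FB.

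Hspa1a and Hspa1b encode the stress-inducible HSP70 chaperones. Hspa1a stood at 588, 522 and 345 CPM in the 3 small intestinal pericyte libraries and at 433, 235 and 363 CPM in those of the colon. It was 163, 164 and 92.6 CPM in SMC and 132, 107 and 278 CPM in small intestinal CD34+ FB. Both pericyte populations thus had the highest means, and all 6 pericyte libraries lay above all 3 SMC libraries. In small intestinal Fgfr2+ FB Hspa1a was 187, 87.2 and 35.3 CPM, against 69.3, 182 and 525 CPM in colonic Fgfr2+ FB. In PDGFRahi FB it was 119, 37.7 and 87.4 CPM in the small intestine and 56.7, 27.4 and 237 CPM in the colon. Colonic CD81+ FB had 49.5, 157 and 78.7 CPM and colonic CD90+ FB 171, 112 and 259 CPM. Within a single FB population the libraries spread widely, and every neighbour in the order of the 10 means overlapped the next.

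Hspa1b likewise had its highest mean in small intestinal pericytes, with 89.8, 219.8 and 97.4 CPM, followed by colonic pericytes, with 79.3, 124 and 98.6 CPM. Its lowest mean was in small intestinal Fgfr2+ FB, at 24.7, 10.0 and 11.4 CPM, while colonic Fgfr2+ FB had 16.3, 66.7 and 188 CPM. The remaining populations had means from 32.8 ± 20.5 CPM (small intestinal PDGFRahi FB) to 56.9 ± 26.0 CPM (small intestinal CD34+ FB). As a sum, the pair averaged 621 ± 158 CPM in small intestinal pericytes, 444 ± 78.6 CPM in colonic pericytes and 114 ± 58.8 CPM in small intestinal PDGFRahi FB, the lowest.

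To ask whether mural cells differ from FB, the ESAM-1+ populations (pericytes and, in the small intestine, SMC) were set against the FB of the same tissue and averaged over both tissues. Calls between groups required an adjusted p under 0.05 together with a log2 fold change past 1.5 in either direction, and here 1 of 10 members was called, Hspb1, against 13.7% of all genes. Hspa1a was higher in mural cells (log2 fold change 1.21 ± 0.33 (SE), adjusted p = 0.00744), as was Hspa1b (log2 fold change 1.09 ± 0.35 (SE), adjusted p = 0.0230), but both stayed under the fold threshold. The high levels lay in pericytes: SMC averaged 139.9 ± 41.0 CPM of Hspa1a and 41.0 ± 9.02 CPM of Hspa1b, within the range of the FB population means, and SMC against FB alone was not tested. The Hspa1b p-value rose above 0.05, to at most 0.0671, without colonic or small intestinal pericyte replicate 2. The median log2 fold change of the 10 members was 0.29, beside -0.01 over all genes tested.

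Hspb1 encodes HSP27, a small heat shock protein that holds unfolded proteins and binds actin filaments, and is abundant in muscle. It was 63.7, 67.8 and 111 CPM in colonic pericytes, 82.4, 44.2 and 83.8 CPM in SMC and 74.7, 8.21 and 56.4 CPM in small intestinal pericytes. Among FB it was highest in colonic PDGFRahi FB, at 15.3, 13.1 and 60.1 CPM. Colonic PDGFRahi FB thus overlapped the mural cells, since small intestinal pericyte replicate 2 lay below all 3 of these FB libraries; the libraries of colonic PDGFRahi FB did not overlap those of the next population in the order, colonic CD90+ FB. Among the other colonic FB, CD90+ FB had 7.57, 4.24 and 8.59 CPM, Fgfr2+ FB 0.723, 7.31 and 10.4 CPM and CD81+ FB 0.0780, 10.0 and 0.333 CPM. The small intestinal FB had 1.43, 4.01 and 5.05 CPM (CD34+) and 4.15, 5.36 and 0.345 CPM (PDGFRahi). Small intestinal Fgfr2+ FB held 0, 1 and 2 estimated counts in their 3 libraries, at or near the limit of detection; 0 counts in replicate 1 allow up to 0.209 CPM, a limit of 3 counts that covers counting error only. Hspb1 was higher in mural cells than in FB (log2 fold change 4.44 ± 0.56 (SE), adjusted p = 4.40e-07), a call kept in all 30 fits without one library.

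Hspb1 was also the one member that differed between Fgfr2+ FB and PDGFRahi FB over both tissues (log2 fold change -3.35 ± 0.97 (SE), adjusted p = 0.0473), where 1 of 10 members and 3.00% of all genes were called. That call lies at the threshold: it was lost in 23 of 30 fits that left out one library, with adjusted p values up to 0.164, and was 0.0630 with length-scaled counts (alternatives other than a left-out library: 0.00324 to 0.0630). The fold itself depends on the near-zero counts of small intestinal Fgfr2+ FB and so on the prior count of the fit.

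Hspa8 encodes HSC70, the constitutive HSP70 chaperone of the cytosol. It was lowest in SMC, at 257, 192 and 203 CPM, and in small intestinal Fgfr2+ FB, at 279, 233 and 325 CPM. These 6 libraries lay below all other libraries, the lowest of which was at 390.2 CPM. Pericytes of the small intestine had 1015, 659.8 and 668 CPM and those of the colon 691, 894 and 739 CPM. Colonic CD81+ FB had 631, 887 and 764 CPM and colonic Fgfr2+ FB 449, 589.8 and 988 CPM. The other 4 populations had means from 533 ± 176 CPM (colonic PDGFRahi FB) to 583 ± 189.5 CPM (small intestinal CD34+ FB), and neighbours among these 8 populations overlapped.

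Between the ESAM-1+ populations of the small intestine, 1 of 10 members was called, Hspa8, where 10.1% of all genes were. Hspa8 was lower in SMC than in pericytes (log2 fold change -1.85 ± 0.33 (SE), adjusted p = 0.000245), and all 3 SMC libraries lay below all 3 pericyte libraries. The call was kept in all 30 fits without one library, including that without SMC replicate 3, but with only these 6 libraries in the fit the adjusted p was 0.0578, the highest of 10 alternatives, which went down to 7.13e-07. Hspa1a (log2 fold change -1.79 ± 0.70 (SE), adjusted p = 0.0963) and Hspa1b (log2 fold change -1.73 ± 0.74 (SE), adjusted p = 0.130) missed the threshold on their adjusted p in edgeR, and DESeq2 called Hspa1a (adjusted p = 0.0383). In the other direction, Hspe1 (log2 fold change 1.76 ± 0.76 (SE), adjusted p = 0.135) missed it too. With Hspa8, these made 4 members at an unadjusted p below 0.05, as were 4564 of the 17542 genes tested. The median log2 fold change of the members was -0.60.

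The other inducible members did not pass the test across populations. Hsp90aa1, the inducible cytosolic HSP90, ranged from 95.3 CPM (small intestinal PDGFRahi FB replicate 2) to 447 CPM (small intestinal SMC replicate 3), median 193 CPM. The highest value fell in the SMC library with the high mitochondrial share, and without it the SMC values were 132 and 108 CPM. Hsph1, an HSP110 that exchanges nucleotide on HSP70, ranged from 16.7 CPM (colonic pericytes replicate 1) to 136 CPM (small intestinal pericytes replicate 2), median 52.8 CPM. Dnajb1, an HSP40 that delivers substrates to HSP70, ranged from 3.83 CPM (colonic PDGFRahi FB replicate 2) to 201 CPM (colonic Fgfr2+ FB replicate 3), median 52.5 CPM. Its libraries disagreed within populations, with 14.3, 126 and 169 CPM in colonic pericytes and 151, 8.33 and 57.6 CPM in those of the small intestine. Bag3, a co-chaperone that links HSP70 to autophagy, ranged from 26.3 CPM (small intestinal Fgfr2+ FB replicate 3) to 215 CPM (colonic CD81+ FB replicate 2), median 118 CPM, and had its highest mean in small intestinal CD34+ FB (156 ± 8.83 CPM).

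Among the constitutive members, Hspd1 and Hspe1 encode the mitochondrial chaperonin HSP60 and its partner HSP10. Hspd1 ranged from 2.79 CPM (small intestinal pericytes replicate 1) to 158 CPM (colonic CD81+ FB replicate 1), median 89.1 CPM. Without that lowest library, where it had 13 estimated counts, the others lay at 50.3 CPM or above. Hspe1 ranged from 5.68 CPM (small intestinal pericytes replicate 2) to 74.4 CPM (small intestinal SMC replicate 3), median 35.6 CPM, and its mean was lowest in small intestinal pericytes (7.94, 5.68 and 18.9 CPM). Hspe1 was higher in all 3 colonic than in all 3 small intestinal PDGFRahi FB libraries, and no comparison called Hspd1 or Hspe1.

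In the comparison of tissues over the 3 subsets found in both (pericytes, Fgfr2+ FB and PDGFRahi FB), 1 of 10 members was called, against 3.25% of all genes. That member, Hspb1, was lower in the small intestine (log2 fold change -3.10 ± 0.75 (SE), adjusted p = 0.0134), with colon libraries above all small intestinal ones in Fgfr2+ FB and PDGFRahi FB and overlapping in pericytes. By subset its log2 fold change was -0.80 ± 1.11 (SE) in pericytes, -5.33 ± 1.56 in Fgfr2+ FB and -3.15 ± 1.21 in PDGFRahi FB, and no single subset was called. The size of the mean fold depends on the near-zero counts of small intestinal Fgfr2+ FB and so on the prior count of the fit. All 10 members had negative estimates, with a median log2 fold change of -0.41 beside -0.02 for all genes, and all but Hspb1 missed the threshold. The direction was not uniform in each subset. Positive estimates were found for 4 of 10 members in pericytes (median -0.15), 3 in PDGFRahi FB (median -0.27) and 0 in Fgfr2+ FB (median -1.08). The share of all genes with negative estimates was not counted. At an unadjusted p below 0.05 there were 4 members, Hspb1, Dnajb1, Hspa8 and Hspe1, and 3171 of the 17542 genes tested. Only pericytes had the same gate in both tissues. Fgfr2+ FB were sorted as CD34- in the small intestine and as CD34+ in the colon. The paper relates the colonic Fgfr2+ FB to Igfbp5+ as well as Fgfr2+ FB of the small intestine.

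Within pericytes, edgeR called 0 of 10 members between tissues, against 5.72% of all genes; 1 member (Hspe1) and 4230 of the 17542 genes tested had an unadjusted p below 0.05, and DESeq2 called 0. Within PDGFRahi FB it called 0, against 0.963% of all genes, with 1 member (Hspb1) and 1146 genes in all at an unadjusted p below 0.05 and 0 called by DESeq2. Within Fgfr2+ FB it called 0, against 1.45% of all genes, with 4 members and 2219 genes in all at an unadjusted p below 0.05. There, Hspa8 was lower in the small intestine (log2 fold change -1.28 ± 0.32 (SE), adjusted p = 0.0353) but under the fold threshold, and its adjusted p rose above 0.05 in 6 of 30 fits without one library (at most 0.295): those without any one small intestinal Fgfr2+ FB library, colonic Fgfr2+ FB replicate 2 or 3, or small intestinal CD34+ FB replicate 1. It also rose above 0.05 in 4 of 9 other alternatives, which ran from 0.0121 to 0.126: RLE scaling, length-scaled counts, only the populations of the contrast in the fit, and small intestinal SMC replicate 3 and Fgfr2+ FB replicate 3 left out together. Hspa1b (log2 fold change -2.54 ± 0.76 (SE), adjusted p = 0.0993), Hspb1 (log2 fold change -5.33 ± 1.56 (SE), adjusted p = 0.0872) and Dnajb1 (log2 fold change -2.57 ± 0.89 (SE), adjusted p = 0.176) had estimates past the fold threshold and adjusted p values above 0.05. In Fgfr2+ FB, Dnajb1 was 26.9, 18.5 and 21.1 CPM in the small intestine and 51.4, 142 and 201 CPM in the colon. Hspb1, Dnajb1 and Hspa8 had all 3 colonic libraries above all 3 small intestinal ones, and the other members overlapped. The share of all genes that separated in this way was not counted, so this describes single members only. A count of 1 came from leaving out colonic CD81+ FB replicate 1 or 2 or colonic Fgfr2+ FB replicate 1. DESeq2 called 2 members there, Hspa1b (adjusted p = 0.0146) and Hspb1 (adjusted p = 0.00318). In edgeR Hspa1a plus Hspa1b had log2 fold change -1.56 ± 0.66 (SE), adjusted p = 0.317.

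The test of whether the tissue difference itself differs between Fgfr2+ FB and PDGFRahi FB called 0 of 10 members in edgeR and 0 in DESeq2, against 0.661% of all genes in edgeR. At an unadjusted p below 0.05 there were 2, Hspa1b (log2 fold change -2.47 ± 1.03 (SE), adjusted p = 0.494) and Hspa8 (log2 fold change -1.37 ± 0.45 (SE), adjusted p = 0.273), among 1378 genes in all. Hspa1a plus Hspa1b had log2 fold change -1.25 ± 0.92 (SE), adjusted p = 0.874 and an unadjusted p of 0.186. Hspa1a, the more abundant copy, had log2 fold change -0.93 ± 0.96 (SE). Whether the value of Hspa1b depends on the split between the copies was not tested. No member passed this test, so a tissue difference in Fgfr2+ FB alone was not shown.

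Levels of different genes were compared per length, as each gene's length-normalised abundance in percent of that of Hspa8 in the same library. On this scale Hspa8 was above every other member in all libraries but 2, in which Hsp90aa1 was higher. Hsp90aa1 had a median of 49.6% of Hspa8 over the 30 libraries and reached 251% in SMC replicate 3. The medians were 22.1% for Hspa1a, 20.7% for Hsph1, 18.1% for Hspe1, 16.0% for Bag3 and 15.0% for Hspd1. Dnajb1 (9.59%), Hspa1b (6.81%) and Hspb1 (3.50%) had the lowest. Per-length values of Hsph1 and Hsp90aa1 lean on short annotated transcripts, since 33.8% and 20.6% of their counts were assigned to transcripts under 1000 bases. Hspa1a stood at 39.7 ± 18.8% of Hspa8 in small intestinal pericytes and 34.2 ± 10.9% in SMC. It was 29.4 ± 12.4% in colonic pericytes and 8.63 ± 4.60% in colonic CD81+ FB. These percentages also depend on Hspa8 itself, which had its lowest mean in SMC (217 ± 34.8 CPM). Hspb1 reached 64.7 ± 17.4% of Hspa8 in SMC and 27.0 ± 13.9% in colonic pericytes, against 0.220 ± 0.294% in small intestinal Fgfr2+ FB.

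The inducible members were set against the constitutive members as the difference between their mean log2 CPM in each library, a description with no test. The difference was highest in small intestinal pericytes (0.76 ± 1.37), SMC (-0.08 ± 0.39) and colonic pericytes (-0.17 ± 0.95). It was lowest in small intestinal Fgfr2+ FB (-1.78 ± 0.73), small intestinal PDGFRahi FB (-1.70 ± 0.61) and colonic CD81+ FB (-1.47 ± 0.26). The other populations had -0.75 ± 0.26 (colonic CD90+ FB), -0.84 ± 0.34 (small intestinal CD34+ FB), -1.16 ± 1.02 (colonic Fgfr2+ FB) and -1.31 ± 0.74 (colonic PDGFRahi FB). The 3 mural populations had the highest means. Libraries of SMC and of colonic pericytes overlapped those of FB. The small intestinal pericyte libraries lay above all FB libraries, the highest of which was at -0.33 (colonic Fgfr2+ FB replicate 3). Without Hspb1 among the inducible members, an alternative chosen after seeing the data, SMC (-0.07 ± 0.43) and colonic pericytes (-0.09 ± 0.93) came to lie beside small intestinal CD34+ FB (-0.13 ± 0.27) and colonic CD90+ FB (-0.19 ± 0.29), while small intestinal pericytes still had the highest mean (1.04 ± 1.29). The lowest means were then in colonic PDGFRahi FB (-1.10 ± 0.70) and small intestinal PDGFRahi FB (-1.02 ± 0.59), with small intestinal Fgfr2+ FB, where Hspb1 had 0 to 2 counts, at -0.79 ± 0.95 and colonic CD81+ FB at -0.57 ± 0.18. With Hspb1 included, the colonic pericyte libraries stood at -0.81, -0.62 and 0.91. On that scale replicates 1 and 2 lay within the range of the colonic CD90+ FB libraries (-0.90 to -0.44). Without Hspb1 the colonic pericyte libraries ran from -0.77 to 0.97 and those of colonic CD90+ FB from -0.42 to 0.14. The lowest small intestinal pericyte library was then at 0.07, below the highest of colonic Fgfr2+ FB (0.29). Both parts entered the differences, which from here on include Hspb1. In small intestinal pericytes the inducible mean was 6.73 ± 0.43 and the constitutive mean 5.97 ± 0.98 log2 CPM, the lowest constitutive mean of the 10 populations. That rank rests on replicate 1, since the constitutive means of replicates 1 to 3 were 4.86, 6.34 and 6.70. Replicates 2 and 3 lay above the means of SMC (6.23) and small intestinal Fgfr2+ FB (6.26). Hspa8 alone had its highest mean in small intestinal pericytes (781 ± 203 CPM). In colonic pericytes the inducible mean was 6.79 ± 0.46 and the constitutive mean 6.97 ± 0.71 log2 CPM, and in SMC the inducible mean was 6.15 ± 0.22 and the constitutive mean 6.23 ± 0.43 log2 CPM. In small intestinal pericytes replicate 1 lay at 2.34 and replicates 2 and 3 at 0.01 and -0.07; replicate 1 is the library in which Hspd1 was 2.79 CPM.

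**Figure D2:**
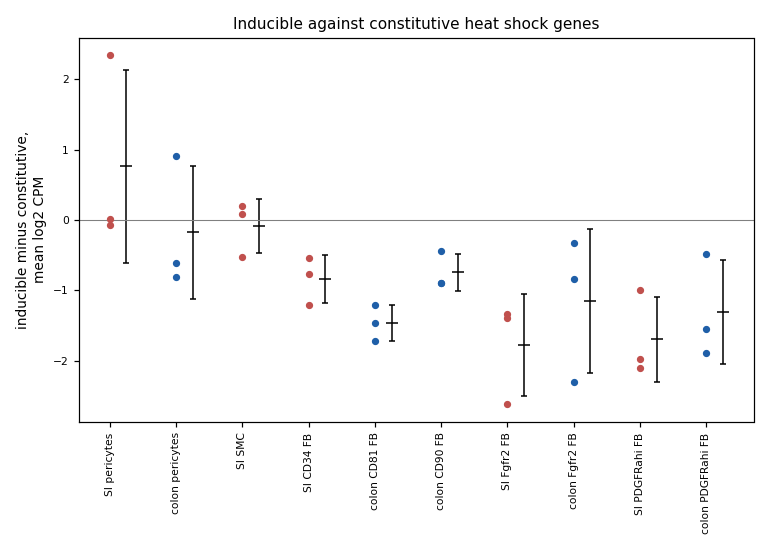
Difference between the mean log2 CPM of the 7 inducible and of the 3 constitutive heat shock genes (vertical axis, log2 units) in each of the 10 populations; points are libraries, red for small intestine (SI) and blue for colon, the black mark with bars is the mean ± SD of 3 libraries, and the grey line marks 0. The mean ran from -1.78 in small intestinal Fgfr2+ FB to 0.76 in small intestinal pericytes.

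The other small heat shock proteins were read beside Hspb1. Of 6 tested of a list of 8, 3 were higher in mural cells and 0 lower, where 13.7% of all genes were called and 1096 of 17542 were higher, with a median log2 fold change of 1.52 beside -0.01 over all genes. Those were Hspb7, Hspb6 and Hspb2, all known from muscle. Hspb7 averaged 98.9 ± 45.8 CPM in SMC, while colonic pericytes had 76.2 ± 25.9 CPM and small intestinal pericytes 46.7 ± 24.2 CPM, against means of 5.78 ± 1.01 CPM (small intestinal CD34+ FB) or below in FB (adjusted p = 3.43e-11). Hspb6 (log2 fold change 2.96 ± 0.47 (SE), adjusted p = 1.99e-05) was at 130.4 ± 28.3 CPM in SMC, with a colonic pericyte mean of 72.6 ± 20.5 CPM, but 7.61 ± 6.91 CPM in small intestinal pericytes, within the range of FB means, which reached 13.3 ± 6.30 CPM in colonic CD90+ FB. Hspb2 was low throughout, and its highest mean, in colonic pericytes (16.3 ± 26.6 CPM), came from libraries between 0 and 47.0 CPM. In small intestinal pericytes Hspb2 averaged 1.03 ± 1.78 CPM, below colonic CD81+ FB (3.58 ± 3.22 CPM) and colonic PDGFRahi FB (3.22 ± 4.67 CPM), so the calls of Hspb6 and Hspb2 (adjusted p = 0.0135 for Hspb2) do not describe every mural population. Between SMC and pericytes of the small intestine Hspb8 (log2 fold change 6.30 ± 1.15 (SE), adjusted p = 0.000343) and Hspb6 (log2 fold change 4.09 ± 1.12 (SE), adjusted p = 0.0163) were higher in SMC. In contrast to Hspb1, Hspb8 was highest in colonic CD81+ FB (211 ± 61.6 CPM), and it was lower in the small intestine over the 3 matched subsets (log2 fold change -3.51 ± 0.58 (SE), adjusted p = 0.000300). Cryab, a small heat shock protein of muscle and lens, had its highest mean in colonic CD81+ FB too (97.4 ± 64.6 CPM) and was not called.

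Other HSP70 genes and exchange factors were called across populations in 6 of 15, against 26.4% of all genes, and their median log2 fold change in mural cells was -0.25. The largest mural difference was in Hspa1l (log2 fold change 4.41 ± 0.78 (SE), adjusted p = 0.000102), a neighbour of Hspa1a on the opposite strand at a distance of 546 bases. Hspa1l averaged 26.0 ± 19.8 CPM in colonic pericytes and 16.8 ± 13.3 CPM in SMC, but 3.86 ± 5.94 CPM in small intestinal pericytes, near colonic CD90+ FB (3.28 ± 2.45 CPM). Hspa12a, a distant HSP70 relative, was lower in SMC than in pericytes (log2 fold change -4.99 ± 0.55 (SE), adjusted p = 1.89e-07). Of 11 DNAJ co-chaperones, which deliver substrates to HSP70, 2 were called across populations, Dnajb4 and Dnajb5, a share below those 26.4%, and Dnajb5 was higher in SMC than in pericytes (log2 fold change 6.72 ± 0.80 (SE), adjusted p = 7.20e-07). HSP90 and its co-chaperones had 2 of 15 called across populations, Stub1 and Unc45a, also a share below 26.4%. Hsp90ab1, the constitutive partner of Hsp90aa1, had means from 605 ± 228 CPM in small intestinal Fgfr2+ FB to 874 ± 132 CPM in colonic PDGFRahi FB. The cytosolic CCT chaperonin had 1 of 7 subunits called, Cct7, likewise below 26.4%. For the 5 genes of heat shock factors and of their binding protein the lowest adjusted p across populations was 0.348, and Hsf1, which switches on the inducible members, had means from 34.6 ± 27.7 CPM (colonic pericytes) to 139 ± 121 CPM (small intestinal pericytes).

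Immediate early genes, transcribed within minutes of a stimulus, were measured beside the inducible members. Of 20 on the list, 19 were called across populations, against 26.4% of all genes. Their summed level was 11683 CPM in small intestinal pericytes, 13389.7 CPM in colonic pericytes and 12639 CPM in colonic CD81+ FB, but 1436 CPM in SMC and 1007 CPM in small intestinal Fgfr2+ FB. In SMC 14 of 20 were lower than in pericytes, where 10.1% of all genes were called, with a median log2 fold change of -3.02. Small intestinal Fgfr2+ FB had 13 of 20 lower than in the colon, where 1.45% of all genes were called, with a median of -3.37. The most abundant per length in pericytes, Egr1, was 3819 ± 2369.9 CPM in small intestinal pericytes and 232 ± 54.9 CPM in SMC. Small intestinal PDGFRahi FB had a sum as low as SMC, at 1428 CPM. Hspa8 was at its lowest in SMC and small intestinal Fgfr2+ FB but averaged 568 ± 171 CPM in small intestinal PDGFRahi FB, and Hspa1a averaged 94.9 ± 55.4 CPM in colonic CD81+ FB, so the order of the sums was not that of either member. The part of handling after dissection in these levels was not tested.

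The populations were checked against their markers. Pericyte markers summed to 44872 CPM in pericytes of the small intestine and 42513 CPM in those of the colon, against 5458 CPM in SMC and between 360.2 and 4105 CPM in FB. Smooth muscle markers were highest in SMC (19879.5 CPM), but colonic pericytes also held 11097 CPM against 3658 CPM in small intestinal pericytes. SMC also held 7723 CPM of FB markers, against 3218 CPM in small intestinal pericytes. Within FB, colonic PDGFRahi FB, which had the highest FB level of Hspb1, held 1663 CPM of smooth muscle markers, and small intestinal PDGFRahi FB, where Hspb1 was 3.29 ± 2.62 CPM, held 2862 CPM. The part of smooth muscle RNA in the Hspb1 levels was not tested. Immune markers summed to 195 CPM in small intestinal pericytes, from 72.3 to 432 CPM in single libraries with Cd68 the most abundant per length, and to 16.3 CPM in SMC. Endothelial markers reached 152 CPM in small intestinal pericytes, and markers of interstitial cells of Cajal, Kit and Ano1, summed to 782 CPM there and 723 CPM in colonic pericytes, nearly all Ano1, with Kit at 2.93 ± 4.71 and 0.0420 ± 0.0728 CPM. Kit had its highest mean in small intestinal PDGFRahi FB (19.7 ± 20.6 CPM). Epcam was at 0 in all libraries of both pericyte populations. Epithelial markers (3 of 5 tested) and glial markers (2 of 4) had mean sums of at most 10.1 and 15.4 CPM in any population, and mesothelial and erythroid markers did not pass the filter. Whether RNA of these cells contributes to the members' levels was not tested. Housekeeping genes had 3 of 8 called across populations, Actb, Gapdh and Eef1a1, against 26.4% of all genes.

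Genes most like the inducible members were those with the highest Pearson r of log2 CPM with the mean standardised log2 CPM of the 7 inducible members, over 30 libraries that fall into 10 populations. Of 8921 genes compared, the 8 highest were Socs3 (r = 0.81), a feedback inhibitor of cytokine signalling, Ehd2 (0.70), Plec (0.70), Ggta1 (0.69), Art3 (0.68), Myc (0.68), Zfp36 (0.68) and Crtc2 (0.67). Socs3, Myc and Zfp36 were on the list of immediate early genes. Among the members, Hspa1a and Hspa1b had the highest r with each other (0.82), which share most of their sequence, and Hspa1a had r = -0.36 with Hspe1. The other pairs of inducible members ran from 0.0085 (Hsp90aa1 with Hsph1) to 0.65 (Hspa1b with Hsp90aa1). The mean of the 7 inducible members is thus not a pattern that all of them share. These values are descriptions with no test.

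The promoters of the members were read for heat shock elements, the binding pattern of HSF1, built of alternating GAA and TTC units. Each window was the 250 bases before an annotated start, from RefSeq on GRCm38.p6, and windows were found for 8 of 10 members, not for Hsp90aa1 and Hspa8. The searched letters were GAANNTTC and TTCNNGAA, which read the same on both strands, and the 3-unit forms GAANNTTCNNGAA and TTCNNGAANNTTC, which contain them. Of 32851 windows of all genes, 6.69% held GAANNTTC, 7.17% TTCNNGAA and 0.466% a 3-unit form. The windows of Hspa1a, Hspa1b and Hspb1 held GAANNTTC, that of Hspb1 2 times, Hsph1 held TTCNNGAA, and the Hspe1 window and one of 2 Hspd1 windows held a 3-unit form in their shared region. Both of those windows lay wholly within the annotated Hspd1 gene, the other Hspd1 window lay within Hspe1, one Dnajb1 window lay within Dnajb1, and 61 and 40 bases of the Hsph1 windows lay within Hsph1. No match was found in the windows of Dnajb1 and Bag3. The windows of Hspa1a and Hspa1b differed at 3 of 250 positions. They are printed 5′ to 3′ with that of Hspb1, the member with the largest mural difference, and capitals mark the GAANNTTC matches; a match is a run of letters and not shown to be a bound site.
Hspa1a (GRCm38.p6, chr17:34972157-34972406, minus strand): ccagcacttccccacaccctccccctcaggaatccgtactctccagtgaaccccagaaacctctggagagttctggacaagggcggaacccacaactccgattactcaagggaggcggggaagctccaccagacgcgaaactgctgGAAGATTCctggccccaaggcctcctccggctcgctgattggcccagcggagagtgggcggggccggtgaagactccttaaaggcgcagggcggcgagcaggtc
Hspa1b (GRCm38.p6, chr17:34959239-34959488, minus strand): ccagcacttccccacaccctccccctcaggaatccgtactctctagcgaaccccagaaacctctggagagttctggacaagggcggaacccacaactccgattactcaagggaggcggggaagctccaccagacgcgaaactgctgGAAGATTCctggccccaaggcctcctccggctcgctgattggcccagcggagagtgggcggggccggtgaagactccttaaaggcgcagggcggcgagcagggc
Hspb1 (GRCm38.p6, chr5:135887669-135887918, plus strand): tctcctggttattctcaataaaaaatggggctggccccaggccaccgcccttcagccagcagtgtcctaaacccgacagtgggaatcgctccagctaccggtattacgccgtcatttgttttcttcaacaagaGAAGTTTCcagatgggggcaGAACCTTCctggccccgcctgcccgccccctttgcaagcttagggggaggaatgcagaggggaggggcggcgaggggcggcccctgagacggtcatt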

How the data were processed

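Sorted stromal populations from small intestine and colon were sequenced after whole-transcriptome amplification of low-input RNA, so counts are of amplified material. The authors trimmed reads with Trim Galore 0.4.0, checked them with FastQC 0.11.2 and deposited, per transcript, estimated counts and TPM (length-normalised transcript abundance) from kallisto 0.42.5, per the submitters' processing notes with the builds mm10 and GRCm38. The transcript set was not given in the sources used here, and 97116 of 98492 transcripts matched GENCODE M21. The deposited TPM column was used for the length-scaled alternative.

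Estimated counts were summed to genes by symbol and rounded to whole numbers. Genes reaching 6 counts in 3 or more of the 30 libraries were tested with edgeR 4.0.16 (quasi-likelihood F test, TMM, one mean per population over all 30 libraries) in R 4.3.3, with Benjamini-Hochberg adjustment over all genes. Log2 CPM used a prior count of 2. Per-length abundance was estimated counts divided by effective length, summed by gene. DESeq2 1.42.0, other scalings and filters, length-scaled counts, a replicate block, fits of fewer libraries and each library left out were the alternatives. The procedure was tested on simulated data. Replicate libraries differed by far more than sampling noise (lowest mean chi-square per gene 17.5).

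The members and gene lists were chosen with earlier results of these data known. The text names all members; from other lists, the called genes with the largest changes and the most abundant; and the 8 genes most like the inducible members by 2 measures.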

Additional observations from a re-analysis of the deposited data

How the results depend on the processing

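No fold change of a called member reversed under any alternative, and the counts of members called in the tissue comparison over 3 subsets and within pericytes and PDGFRahi FB, and in the interaction, were the same under every one run. Across populations the count of 4 was between 2 and 4 with a library left out, 3 with upper-quartile scaling or length-scaled counts (without Hspa1b), 3 with Hspa1a and Hspa1b merged, and 5 with no filter. For Fgfr2+ FB between tissues, the 0 members called became 2 with no filter, 2 with DESeq2, 1 with only the populations of the contrast in the fit (Dnajb1), 1 with no fold threshold and 0 to 1 with a library left out. For mural cells the 1 member became 3 with no fold threshold. For SMC against pericytes the 1 member became 0 with only those populations in the fit and 2 with DESeq2. For Fgfr2+ FB against PDGFRahi FB the 1 member became 0 with length-scaled counts and 0 to 1 with a library left out. Relative to the mean of all libraries, the inducible minus constitutive difference went without Hspb1 from 0.77 to 0.27 in SMC, from -0.62 to -0.23 in colonic CD81+ FB, from 0.68 to 0.25 in colonic pericytes, from -0.93 to -0.45 in small intestinal Fgfr2+ FB, from -0.31 to -0.15 in colonic Fgfr2+ FB, from -0.46 to -0.76 in colonic PDGFRahi FB and from 0.01 to 0.21 in small intestinal CD34+ FB; it moved by less than 1.5 times in the other populations. With 1 of its own libraries left out, the difference ran from -0.72 to 0.27 in colonic Fgfr2+ FB. It ran from -0.05 to 0.18 in colonic CD90+ FB and from -0.14 to 0.20 in small intestinal CD34+ FB. Its sign was thus not fixed in those populations and was kept in the others. Colonic pericytes ran from 0.13 to 1.00, colonic PDGFRahi FB from -0.88 to -0.17 and small intestinal pericytes from 0.82 to 2.03. The cause of these changes was not tested. Leaving out small intestinal SMC replicate 3 and Fgfr2+ FB replicate 3 together, chosen after seeing the data, left 3 members called across populations and changed no other count. The labels name 3 mice without tying a number to a mouse, so the number was not treated as a pairing in the main fit. Deviations from population means correlated with a median r of 0.0145 over 135 same-numbered pairs, 12 of them above 0.1. Over 270 differently numbered pairs the median was -0.00568, with 10 of them above 0.1. These correlations do not settle whether the numbers pair the libraries. With the replicate block, 4 members were called across populations and 1 in mural cells, and it changed no count of members called. The highest mean correlation was with the own number for 21 of 30 libraries, a hint from the data. The paper states that subsets of both tissues came from the same mice, in 3 independent experiments. It ties no replicate number to a mouse or an experiment. Over all genes, edgeR and DESeq2 called 570 and 1031 between tissues over 3 subsets, 1003 and 2407 in pericytes, 255 and 814 in Fgfr2+ FB, 169 and 403 in PDGFRahi FB, 1779 and 2941 for SMC against pericytes, 526 and 850 for Fgfr2+ FB against PDGFRahi FB and 116 and 367 in the interaction. Of the members, Hspb1 had the lowest counts, at 0 to 2 in small intestinal Fgfr2+ FB. Replicate 1 of that population, with 0 counts of Hspb1, held 15098412 counts in all, above the median of 9601683.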

Other observations

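Inducible members were also compared by the deviations of libraries from their population means, in which Hspa1a and Hspa1b had r = 0.76. Of the deviations from population means over 30 libraries, the gene most like the inducible members was Hspa5 (r = 0.87), the HSP70 of the endoplasmic reticulum, followed by Socs3 (0.75), Slc25a5 (0.74), Ehd2 (0.74), Shmt2 (0.72), Heyl (0.69), Gsk3a (0.69) and Sel1l (0.69). Hspa8 deviated with Hspa1b (r = 0.63), Dnajb1 (0.60), Hsp90aa1 (0.60) and Hspa1a (0.59), although it is the constitutive HSP70, while Hspd1 did not (-0.13). These are descriptions over libraries that share depth and amplification, with no test.

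Libraries numbered 3 lay above their population means, on average over the 10 populations, for every member but Bag3 (-0.23 log2 CPM), where 53.0% of all 17542 genes tested did. The mean deviation was largest for Dnajb1 (0.63), Hspa1b (0.43), Hsph1 (0.42) and Hsp90aa1 (0.35). Replicate 3 had the highest of the 3 values in 8 of 10 populations for Hsp90aa1 and in 7 for Hsph1 and Hspb1. What the number stands for is not given in the labels.

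Of chaperones and stress genes of the endoplasmic reticulum, 3 of 16 were lower in mural cells and 0 higher, where 13.7% of all genes were called, with a median log2 fold change of -0.84 beside -0.01 over all genes. They were Hsp90b1 (log2 fold change -1.61 ± 0.17 (SE), adjusted p = 1.34e-08), Serpinh1, the collagen chaperone (log2 fold change -2.15 ± 0.28 (SE), adjusted p = 8.18e-07), and Sdf2l1 (log2 fold change -3.28 ± 0.66 (SE), adjusted p = 0.000405). Hspa5 was 1090.1 ± 464 CPM in colonic CD81+ FB and 152 ± 10.7 CPM in SMC.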
